A study of Homo sapiens with 8 samples.

Results

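The genes examined here encode the machinery that licenses replication origins and copies DNA at the fork. They are 52 genes named from the origin recognition complex, the MCM2-7 helicase and its loaders and activators, GINS, the replicative polymerases, the sliding clamp and its loaders, Okazaki fragment enzymes, replication protein A, chromatin assembly factor 1 (CAF-1) and fork protection factors. They were found by their GENCODE symbol among the 58735 Ensembl genes of each count file, and all 52 passed the filter on low counts that left 16452 genes for testing. The cells were 22Rv1, an established line of castration-resistant human prostate carcinoma, profiled by RNA sequencing in 8 libraries. The 4 control libraries came from cells given DMSO, the vehicle, and the 4 treated libraries from cells given PCC0208017, which the submitters describe as a MARK3 inhibitor. The labels state no dose or duration, nor whether replicates were separate cultures, and p-values therefore measure only the spread between these libraries, which may be technical. Other actions of the compound cannot be told apart from inhibition of MARK3.

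Replication starts where the origin recognition complex (ORC) sits on DNA. In G1, ORC with CDC6 and CDT1 loads MCM2-7 as inactive double rings, and geminin (GMNN) binds CDT1 to stop reloading later in the cycle. In S phase the kinase CDC7 with its activator DBF4, together with CDKs, turns the loaded rings into the CDC45-MCM-GINS helicase, and polymerases alpha, delta and epsilon then copy the strands. Many of these genes are textbook targets of E2F transcription factors and are transcribed around the G1/S boundary.

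Control libraries held 12672817 to 13386143 counts and treated libraries 13517289 to 21271127. No member had fewer than 112 counts in any library. Summed over a list of 10 prostate epithelial markers, the level was 2833 to 2898 CPM of total (counts scaled to a common library size, here by total counts) in controls and 1988 to 2065 in treated libraries. The 5 leukocyte markers summed to 1.42 to 1.97 CPM in controls and 1.41 to 2.73 CPM in treated libraries, with 4 of the 5 under 1 CPM in every library and CD3E at 0. The 4 endothelial markers summed to at most 0.0763 CPM in controls and 0.141 CPM in treated libraries, with PECAM1 and CDH5 at 0. The 5 fibroblast markers summed to 11.97 to 17.4 CPM in controls and 15.1 to 22.9 CPM in treated libraries, 3 of them under 1 CPM throughout. Genes within a list did not move together. By log2 fold change, inhibitor minus control, COL1A1 rose (0.68) and LUM fell (−2.62). Prostate epithelial markers ranged from −4.74 for KLK3 to 0.03 for EPCAM. The part of these genes in the results was not tested.

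Replication genes were lower in treated cells, with few exceptions. The test called 45 of the 52 lower and 1 higher, and left 6 uncalled (edgeR, adjusted p under 0.05). Of all tested genes, 58% were called, 28.3% lower and 29.8% higher. The median log2 fold change, inhibitor minus control, was −0.75 for the 52 genes and 0.02 for all tested genes. In 43 members every treated library lay below every control, which held for 25.1% of tested genes, and in 1 member every treated library lay above, which held for 25.8%. The libraries of the other 8, ORC2, ORC3, ORC5, DBF4, PRIM2, RFC1, DSCC1 and WDHD1, overlapped. In bulk RNA, fewer cells in S phase and less of each transcript per cell cannot be told apart.

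Sizes ranged from −1.44 for MCM5 to 0.49 for ORC4. A log2 change of −1 or below was found for 11 members, against 6.11% of tested genes. A change between −1 and −0.5 was found for 24 members, against 1845 of the 16452 tested genes. Ranked by log2 change among all tested genes, 9 members fell in the lowest 5%, 25 in the lowest 10% and 41 in the lowest 25%. By complex, the medians were lowest for MCM2-7 (−1.14), the helicase activation factors (−1.08) and GINS (−0.94), and nearest 0 for replication protein A (−0.31) and ORC (−0.12). The plot of changes by complex shows this order and the spread inside each complex.

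**Figure D1:**
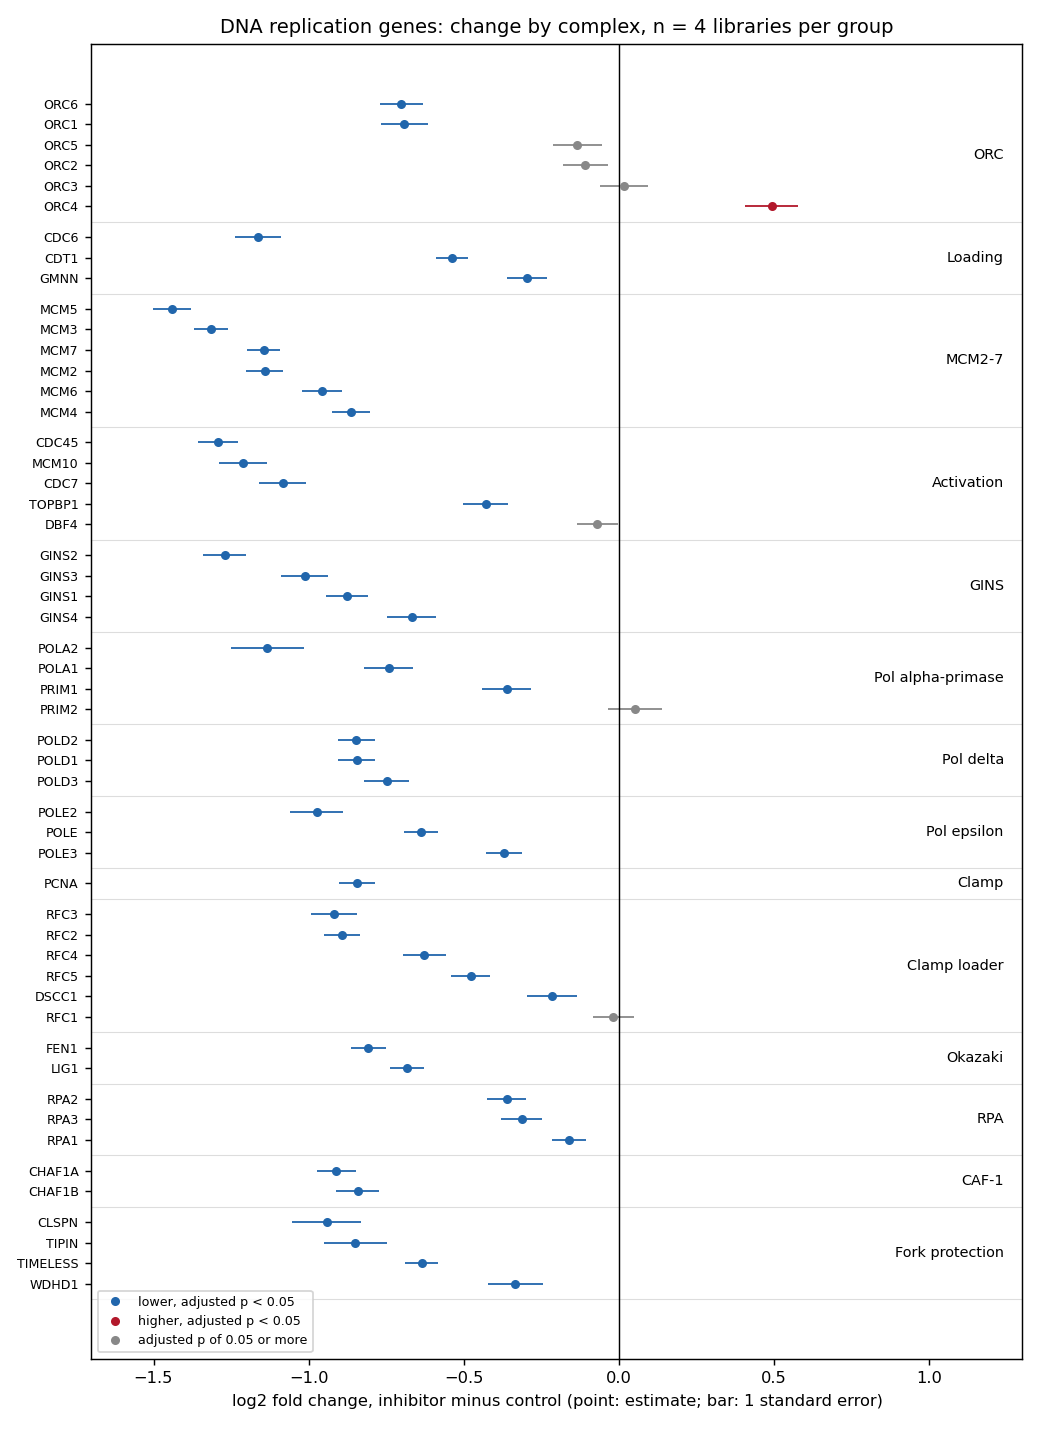
Log2 fold change (inhibitor minus control, x axis) of each of the 52 replication genes (y axis), grouped by complex. Points are edgeR estimates from 4 libraries per group, bars are 1 standard error, and colour gives the call at adjusted p under 0.05. All 6 MCM2-7 genes lie at −0.86 or below, whereas ORC genes run from −0.70 to 0.49.

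Promoter windows are shown for the 3 members with the largest falls and the 3 with the least negative changes among those in the RefSeq table (GRCh38.p14), because the genes at the 2 ends of the list can then be read side by side. Each window is 300 bases, from 250 before to 50 after the RefSeq start. Capitals mark matches, on either strand, to E2F-type octamers (TTTCCCGC, TTTGGCGC, TTTCGCGC or TTTGCCGC), the E-box CACGTG, the CCAAT box CCAAT and the CHR element TTTGAA. The windows are MCM3 (chr6:52284693-52284992, minus strand), CDC45 (chr22:19479670-19479969, plus strand), GINS2 (chr16:85688905-85689204, minus strand), ORC3 (chr6:87589885-87590184, plus strand), PRIM2 (chr6:57314555-57314854, plus strand) and ORC4 (chr2:148021502-148021801, minus strand).
MCM3: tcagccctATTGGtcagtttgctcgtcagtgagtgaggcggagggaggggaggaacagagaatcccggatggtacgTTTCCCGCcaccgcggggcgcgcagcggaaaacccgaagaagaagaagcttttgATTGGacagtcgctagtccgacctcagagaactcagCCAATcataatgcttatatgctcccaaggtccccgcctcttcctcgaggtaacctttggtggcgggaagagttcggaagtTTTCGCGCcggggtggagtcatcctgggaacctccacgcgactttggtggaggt
CDC45: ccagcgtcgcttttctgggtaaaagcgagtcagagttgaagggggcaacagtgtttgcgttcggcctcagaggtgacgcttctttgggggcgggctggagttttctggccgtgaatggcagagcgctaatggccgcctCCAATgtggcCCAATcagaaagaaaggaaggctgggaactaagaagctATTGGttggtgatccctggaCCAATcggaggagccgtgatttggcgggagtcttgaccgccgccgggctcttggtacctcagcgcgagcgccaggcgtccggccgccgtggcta
GINS2: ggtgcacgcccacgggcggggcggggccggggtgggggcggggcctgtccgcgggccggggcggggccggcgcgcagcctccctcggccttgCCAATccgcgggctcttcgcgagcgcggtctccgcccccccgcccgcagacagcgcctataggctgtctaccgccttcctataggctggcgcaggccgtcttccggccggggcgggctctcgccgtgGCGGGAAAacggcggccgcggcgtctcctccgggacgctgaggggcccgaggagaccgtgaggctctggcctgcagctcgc
ORC3: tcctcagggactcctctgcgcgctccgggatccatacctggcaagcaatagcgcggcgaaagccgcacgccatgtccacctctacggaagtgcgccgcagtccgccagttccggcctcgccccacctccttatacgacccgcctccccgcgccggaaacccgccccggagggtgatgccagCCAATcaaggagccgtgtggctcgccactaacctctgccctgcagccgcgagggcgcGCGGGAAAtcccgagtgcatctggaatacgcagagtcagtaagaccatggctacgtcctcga
PRIM2: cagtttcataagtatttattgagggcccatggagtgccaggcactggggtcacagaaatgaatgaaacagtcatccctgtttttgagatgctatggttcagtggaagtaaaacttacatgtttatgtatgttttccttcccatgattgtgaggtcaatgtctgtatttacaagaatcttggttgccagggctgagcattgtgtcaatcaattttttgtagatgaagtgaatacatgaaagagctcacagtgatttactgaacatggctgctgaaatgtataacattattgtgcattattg
ORC4: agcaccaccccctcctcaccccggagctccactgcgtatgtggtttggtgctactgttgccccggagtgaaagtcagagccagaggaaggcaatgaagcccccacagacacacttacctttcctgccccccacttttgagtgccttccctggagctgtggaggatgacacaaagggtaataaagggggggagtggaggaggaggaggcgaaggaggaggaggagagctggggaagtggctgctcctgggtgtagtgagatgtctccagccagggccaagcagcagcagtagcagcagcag

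The MCM3 window holds E2F octamers beginning at −174 and −4 from the start and 3 CCAAT boxes. The GINS2 window holds 1 E2F octamer at −31 and 1 CCAAT box at −158. CDC45 holds 4 CCAAT boxes, between −112 and −44, and none of the E2F octamers searched. Among the members that did not fall, ORC3 also holds an E2F octamer, at −12, and a CCAAT box at −69. PRIM2 and ORC4 hold none of the 4 motifs in these windows. Which start these cells use was not examined, and a match is a description of letters, not of binding.

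Over the members in the table, 19 of 45 windows (42.2%) held an E2F octamer, against 5.21% of the windows of 11525 tested genes and 3.33% of all 27305 windows. MCM6 held 4 matches. The median log2 change was −0.94 for the 19 members with a match and −0.63 for the 26 without, and 18 of the 19 and 20 of the 26 were called lower. Of all tested genes 28.3% were called lower, and this share was not computed separately for those with and without a match. The difference between members with and without a match was not tested. CCAAT boxes were in 53.3% of member windows and 36.9% of tested genes' windows. The E-box was in 15.6% and 10.1%. The CHR element was in 2.22% (DBF4 alone) and 9.45%. MCM4, MCM5, GINS4, POLD3, RPA2, RPA3 and DSCC1 are not among the windows used.

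**Figure D2:**
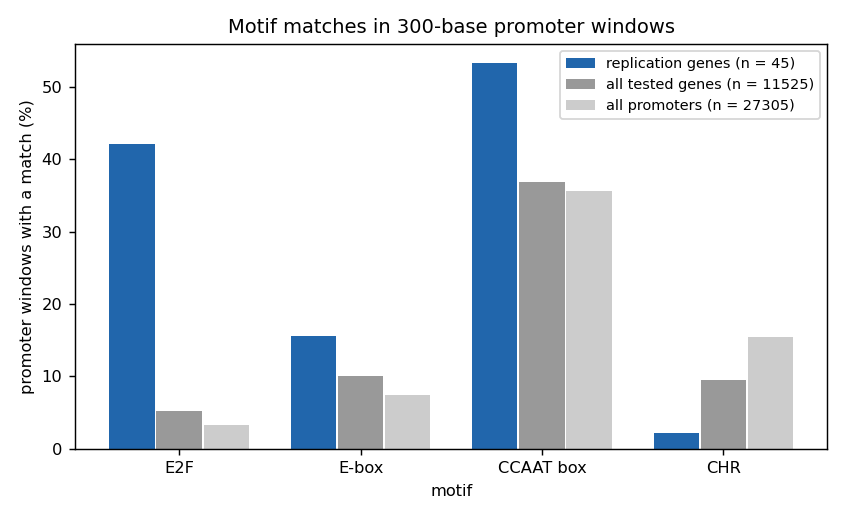
Share of 300-base RefSeq promoter windows (y axis, %) with at least 1 match to each motif (x axis) for the 45 replication genes in the table, all tested genes and all promoters. E2F octamers were in 42.2% of replication gene windows and 5.21% of tested genes' windows; the CHR element was in 2.22% and 9.45%.

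ORC, which marks origins, split by subunit. ORC1, the subunit whose protein is degraded and remade each cycle in human cells, had levels of 41.6, 38.5, 41.6 and 44.4 CPM in controls and 25.4, 24.5, 25.5 and 27.5 CPM in treated libraries. Every treated library lay below every control, a change of −0.69 ± 0.08, adjusted p = 2.34e-08. ORC6, the smallest subunit, gave 71.7, 69.1, 67.6 and 67.4 CPM in controls and 40.6, 42.8, 46.7 and 39.4 CPM in treated libraries, again without overlap (−0.70 ± 0.07, adjusted p = 3.63e-09). The core subunits ORC2 (−0.11 ± 0.07, adjusted p = 0.207), ORC3 (0.02 ± 0.08, adjusted p = 0.869) and ORC5 (−0.13 ± 0.08, adjusted p = 0.147) did not pass the test.

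The libraries of these 3 core subunits overlapped. ORC2 was at 41.5, 42.9, 42.1 and 37.5 CPM in controls and 41.1, 36.5, 37.4 and 37.2 CPM in treated libraries. ORC3 was at 29.99, 27.9, 31.2 and 30.04 CPM in controls and 32.7, 28.4, 31 and 28.7 CPM in treated libraries. ORC5 was at 40.7, 38.7, 37.1 and 35.8 CPM in controls and 38.6, 34.6, 35 and 30.6 CPM in treated libraries, with the lowest value in treated replicate 4 and treated replicate 1 within the control range.

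ORC4 (ENSG00000115947; chromosome 2, 147930396 to 148021604, minus strand), a core AAA+ subunit, was the one member that rose. Its levels were 20.2, 19.2, 16.9 and 18.4 CPM in controls and 26.8, 24.9, 28.3 and 25.4 CPM in treated libraries. All treated libraries were above all controls, 1.41-fold higher (0.49 ± 0.09, adjusted p = 2.43e-05). ORC4 shares exonic positions with MBD5 and ACVR2A on the opposite strand, at mean levels of 10.5 and 9.92 CPM of total against 22.6 for ORC4. No source used here says if reads were counted by strand, so here and below reads at shared positions may not be told apart. Within a library, the log2 ratio of ORC1 to ORC4 counts went from 1.15 ± 0.15 to −0.03 ± 0.11 (mean ± SD, n = 4) and that of ORC6 to ORC4 from 1.88 ± 0.08 to 0.68 ± 0.08. Neither ratio overlapped between the groups, which follows from the levels of the single genes.

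Helicase loading factors fell unequally. CDC6, the ATPase that joins ORC to recruit MCM2-7, had 108, 105, 99.4 and 105 CPM in controls and 53.5, 41.9, 48.8 and 42.6 CPM in treated libraries. It was 2.24-fold lower (−1.16 ± 0.07, adjusted p = 9.8e-13), with treated replicates 2 and 4 lowest. CDT1, the other loading factor, was at 289.6, 303, 301 and 302 CPM in controls and 205, 209.9, 199.9 and 208 CPM in treated libraries (−0.54 ± 0.05, adjusted p = 2.74e-09), a smaller fall without overlap. GMNN, the CDT1 inhibitor, was at 76.8, 77.9, 74.9 and 70.4 CPM in controls and 65.6, 58.5, 57.9 and 62.4 CPM in treated libraries (−0.30 ± 0.07, adjusted p = 0.000374), also without overlap. The log2 ratio of CDC6 to CDT1 counts differed by −0.63 between the groups and that of CDT1 to GMNN by −0.24, both without overlap (exact permutation p = 0.0286). With GC offsets the changes of CDT1 and GMNN were −0.33 and −0.37, so CDT1 then no longer fell more than GMNN. Their ratio was not rerun in that setting.

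All 6 genes of the MCM2-7 ring, the motor of the replicative helicase, fell. MCM5 (ENSG00000100297; chromosome 22, 35400134 to 35425431, plus strand) had the largest fall of the 52, with 285, 300.3, 318 and 312 CPM in controls and 116, 101, 119 and 113 CPM in treated libraries. Treated cells kept 36.9% of the control level (−1.44 ± 0.06, adjusted p = 4.6e-16), and only 2.78% of tested genes had a lower log2 change. MCM3 (ENSG00000112118; chromosome 6, 52264014 to 52284881, minus strand) was at 220.4, 227, 229.5 and 221 CPM in controls and 89.9, 87.6, 95.1 and 88.4 CPM in treated libraries (−1.31 ± 0.06, adjusted p = 4.5e-16). For both, the treated libraries lay far below the controls and close to one another.

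The other 4 ring subunits kept more of their control level. MCM7 was at 872, 891, 907 and 914 CPM in controls and 423, 389.6, 399.9 and 408 CPM in treated libraries (−1.14 ± 0.05, adjusted p = 2.46e-15). MCM2 was at 220.3, 232, 227 and 218 CPM in controls and 108, 92.9, 108 and 97.6 CPM in treated libraries (−1.14 ± 0.06, adjusted p = 3.35e-14). MCM6 went from 123 ± 3.55 to 63.5 ± 5.37 CPM (mean ± SD, n = 4; −0.96 ± 0.06, adjusted p = 4.24e-12) and MCM4 from 419 ± 17.1 to 230.3 ± 20.9 CPM (−0.86 ± 0.06, adjusted p = 1.21e-11). Within MCM4 and MCM2, treated replicates 2 and 4 were the lowest of the treated libraries. The ratio of MCM5 to MCM7 counts fell by 0.29 on the log2 scale without overlap (two-sided exact permutation p = 0.0286, the smallest that 4 against 4 allows). The ratio of MCM4 to MCM6 was 0.09 higher, also without overlap, but only 0.0418 higher without treated replicate 3.

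MCM2-7 proteins assemble in equal numbers, while their transcripts differed in level per length. On the scale of control CPM per kb of annotated exon, MCM7 was highest at 181 ± 3.8 (mean ± SD, n = 4), followed by MCM3 at 61.6 ± 1.24 and MCM2 at 47.6 ± 1.36. MCM4 (42.5 ± 1.74) and MCM5 (41.8 ± 2.03) did not differ beyond their spread, and MCM6 was lowest at 29.8 ± 0.858. In treated cells the levels were 81.7 ± 2.87 for MCM7, 24.8 ± 0.925 for MCM3, 23.4 ± 2.13 for MCM4, 21.6 ± 1.64 for MCM2, 15.4 ± 1.09 for MCM5 and 15.4 ± 1.3 for MCM6. MCM5 and MCM6 then overlapped within their spread, as did MCM4 with its neighbours MCM3 and MCM2. Exon lengths count every annotated exon, so these levels depend on which transcripts the cells use.

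**Figure D3:**
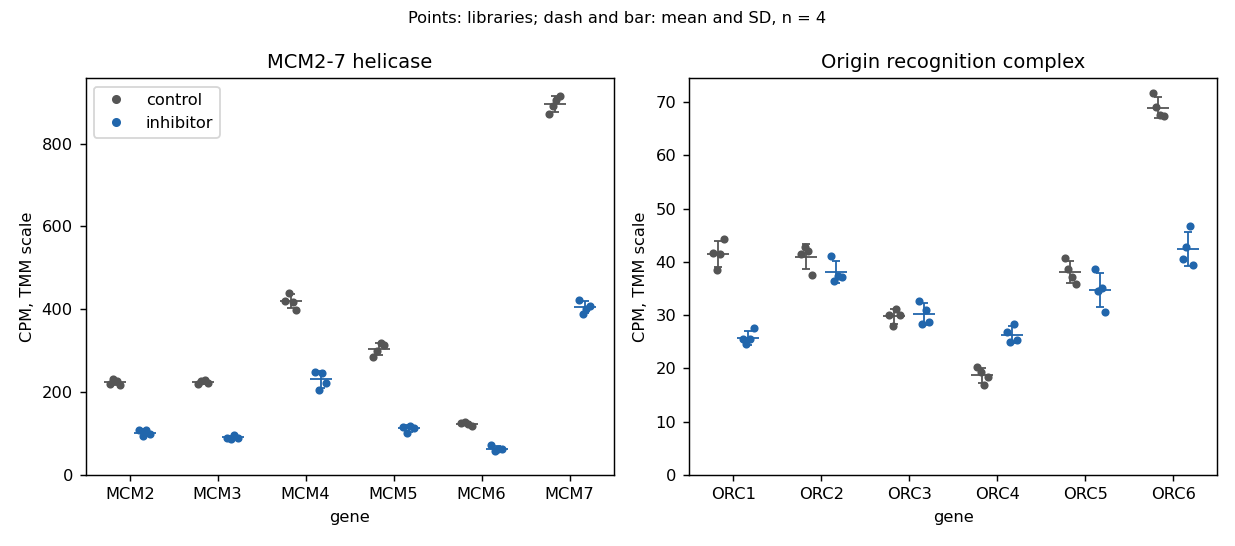
Level in each library (y axis, CPM on the TMM scale) of the MCM2-7 genes (left) and the ORC genes (right), with controls in grey and inhibitor libraries in blue. Points are libraries, and dashes with bars are mean ± SD, n = 4. No MCM gene overlaps between the groups, while ORC2, ORC3 and ORC5 do and ORC4 is higher in treated cells.

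Of the 5 factors that turn loaded rings into an active helicase, 4 fell and DBF4 did not pass the test. CDC45 (ENSG00000093009; chromosome 22, 19479457 to 19520612, plus strand), a subunit of the active helicase, was at 88.1, 94.6, 96.3 and 94.3 CPM in controls and 37.5, 39.1, 36.4 and 39.4 CPM in treated libraries. All treated libraries lay below all controls, and the gene was 2.45-fold lower (−1.29 ± 0.06, adjusted p = 1.12e-14). MCM10, which is needed for the helicase to start unwinding, was at 55, 51.3, 51.8 and 48.7 CPM in controls and 24.3, 20.4, 23.7 and 21.2 CPM in treated libraries (−1.21 ± 0.08, adjusted p = 1.56e-12). TOPBP1, the scaffold that brings GINS to the rings and activates ATR, was at 92, 89.3, 86 and 88.4 CPM in controls and 70.7, 58.3, 74.1 and 61.6 CPM in treated libraries (−0.43 ± 0.07, adjusted p = 1.44e-05). Its treated replicates 2 and 4 were the lowest, and no treated library reached a control.

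The kinase and its activator moved apart. CDC7, the catalytic subunit, was at 38.1, 36.9, 36.7 and 37.4 CPM in controls and 18, 17.8, 17.7 and 16.9 CPM in treated libraries, without overlap (−1.08 ± 0.08, adjusted p = 7.58e-12). DBF4, its regulatory subunit, was at 61.2, 63.5, 63.1 and 61.5 CPM in controls and 66, 56.6, 59.5 and 55.7 CPM in treated libraries, with treated replicate 1 above every control (−0.07 ± 0.07, adjusted p = 0.39). Within a library the log2 ratio of DBF4 to CDC7 counts was 0.69, 0.78, 0.78 and 0.71 in controls and 1.87, 1.67, 1.75 and 1.72 in treated libraries. That difference of 1.01 was the largest rise among the pairs (exact permutation p = 0.0286), and the separation follows from the levels of the single genes. DBF4 shares exonic positions with SLC25A40 on the opposite strand, which had a mean of 63.8 CPM of total against 60.7 for DBF4.

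GINS, the tetramer that completes the helicase, was lower in all 4 subunits. GINS2 was at 90.8, 82.1, 90.04 and 86.3 CPM in controls and 39.9, 35.2, 35.7 and 34.1 CPM in treated libraries (−1.27 ± 0.07, adjusted p = 5.34e-14). GINS3 was at 46.5, 46.1, 46 and 48.3 CPM in controls and 24.3, 20.9, 24.5 and 23.2 CPM in treated libraries (−1.01 ± 0.08, adjusted p = 2.4e-11). GINS1 went from 81.7 ± 2.06 to 44.6 ± 3.97 CPM (−0.88 ± 0.07, adjusted p = 7.22e-11) and GINS4 from 32.1 ± 1.87 to 20.2 ± 0.7 CPM (−0.67 ± 0.08, adjusted p = 8.76e-08). No subunit overlapped between the groups. GINS2 shares exonic positions with the more abundant GSE1 on the opposite strand, at 227 CPM of total against 60.7 for GINS2, and GINS1 with NINL, at 17.6 against 62.4. GINS2 fell relative to GINS3 within libraries (log2 ratio 0.90 ± 0.08 to 0.64 ± 0.11), and CDC45 relative to GINS4 (1.54 ± 0.06 to 0.92 ± 0.06; exact permutation p = 0.0286 each).

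Polymerase alpha-primase, which lays the RNA-DNA primers, was uneven. POLA2, the accessory subunit, was at 16.9, 17, 23.9 and 19.6 CPM in controls and 7.81, 9.66, 8.55 and 9.06 CPM in treated libraries (−1.13 ± 0.12, adjusted p = 8.7e-09). It had the lowest control level per length of any member (1.61 ± 0.274 CPM per kb) and the largest SD of log2 CPM among controls, with replicate 3 highest. POLA1, the catalytic polymerase, was at 56.5, 50.9, 44.7 and 47.4 CPM in controls and 32.2, 27.6, 30.3 and 29.5 CPM in treated libraries (−0.74 ± 0.08, adjusted p = 2.07e-08). PRIM1, the catalytic primase, was at 39.2, 36.5, 38.6 and 33.2 CPM in controls and 31.1, 27.4, 28.5 and 27.9 CPM in treated libraries (−0.36 ± 0.08, adjusted p = 0.000306). Treated libraries of these 3 genes were all below the controls.

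PRIM2 (ENSG00000146143; chromosome 6, 57314805 to 57646850, plus strand), the large primase subunit, did not follow them. Its levels were 29.6, 29.8, 27.8 and 32.8 CPM in controls and 34.6, 27.7, 28.4 and 34.1 CPM in treated libraries, with treated replicates 1 and 4 above every control, replicate 3 inside the control range and replicate 2 just below it (0.05 ± 0.09, adjusted p = 0.634). The log2 ratio of PRIM1 to PRIM2 went from 0.30 ± 0.20 to −0.11 ± 0.14 (exact permutation p = 0.0286). That of POLA2 to POLA1 overlapped between the groups (−1.37 ± 0.37 to −1.77 ± 0.22; exact permutation p = 0.143). PRIM1 shares exonic positions with NACA on the same strand, at a mean of 629 CPM of total against 32.6 for PRIM1.

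POLD1, POLD2 and POLD3, the larger subunits of polymerase delta, the lagging-strand enzyme, fell to a similar degree, whereas POLD4, its smallest subunit, is among the further genes and rose (0.72 ± 0.12, adjusted p = 2.32e-05). POLD2 was at 363, 375, 408 and 420.2 CPM in controls and 231, 208, 207 and 226 CPM in treated libraries (−0.85 ± 0.06, adjusted p = 8.78e-12). POLD1, the catalytic subunit, was at 159, 167, 182 and 177 CPM in controls and 93.1, 94.1, 98.8 and 95.6 CPM in treated libraries (−0.85 ± 0.06, adjusted p = 6.77e-12), and POLD3 went from 50.3 ± 1.22 to 30.04 ± 2.31 CPM (−0.75 ± 0.07, adjusted p = 3.69e-09). The log2 ratio of POLD1 to POLD2 was −1.19 ± 0.04 to −1.19 ± 0.11 with overlapping libraries (exact permutation p = 0.971). With GC offsets the falls were less alike, at −0.64 for POLD1, −0.73 for POLD2 and −0.84 for POLD3.

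Polymerase epsilon, the leading-strand enzyme, had a wider range. POLE2, a helicase-facing accessory subunit, was at 31.6, 29.7, 29.6 and 32.8 CPM in controls and 16.4, 15.1, 17.5 and 14 CPM in treated libraries (−0.97 ± 0.09, adjusted p = 6.68e-10). POLE, the catalytic subunit, was at 258, 248, 251 and 266 CPM in controls and 158, 163, 172 and 164 CPM in treated libraries (−0.64 ± 0.05, adjusted p = 2.61e-10). POLE3, a histone-fold subunit that also serves in chromatin remodelling, was at 123, 123, 124 and 118 CPM in controls and 101, 89.1, 92.3 and 95.6 CPM in treated libraries (−0.37 ± 0.06, adjusted p = 7.84e-06). None overlapped between the groups, and the POLE2 to POLE3 ratio differed by −0.60 on the log2 scale (exact permutation p = 0.0286).

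PCNA, the sliding clamp that tethers polymerases, was the member with the highest control level per length (252 ± 2.54 CPM per kb). It was at 353, 351, 352 and 359 CPM in controls and 212, 179.7, 192 and 206 CPM in treated libraries (−0.84 ± 0.06, adjusted p = 4.08e-12), without overlap. Of its loader, the small subunits RFC2 to RFC5 all fell. RFC2 was at 163, 159, 169 and 172 CPM in controls and 91.2, 86.5, 86.3 and 93.5 CPM in treated libraries (−0.89 ± 0.06, adjusted p = 1.65e-12). RFC3 was at 79.1, 71.4, 70.7 and 65.4 CPM in controls and 38.6, 34.9, 41.3 and 37.3 CPM in treated libraries (−0.92 ± 0.07, adjusted p = 1.06e-10). In both, treated libraries stood well below the controls. RFC4 was at 76.3, 81.7, 77.9 and 81.5 CPM in controls and 46.5, 54.7, 48.8 and 55.1 CPM in treated libraries (−0.63 ± 0.07, adjusted p = 2.31e-08). RFC5 was at 84, 83.2, 84 and 77.9 CPM in controls and 63.5, 58.6, 57.2 and 57.2 CPM in treated libraries (−0.48 ± 0.06, adjusted p = 5.17e-07), the smallest fall of the 4, also without overlap.

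RFC1 (ENSG00000035928; chromosome 4, 39287456 to 39366375, minus strand), the large subunit that makes the loader specific for PCNA, did not pass. Its levels were 109, 107, 99 and 97 CPM in controls and 111, 93.7, 107 and 94.9 CPM in treated libraries, with treated libraries both above and below the control range (−0.02 ± 0.07, adjusted p = 0.828). The log2 ratio of RFC4 to RFC1 went from −0.37 ± 0.11 to −0.99 ± 0.24 without overlap (exact permutation p = 0.0286). DSCC1, a subunit of the alternative loader used in sister chromatid cohesion, was at 43.7, 43.6, 38.3 and 38.4 CPM in controls and 39.9, 32.1, 35.7 and 33.8 CPM in treated libraries, with treated replicate 1 inside the control range (−0.22 ± 0.08, adjusted p = 0.024). That call ended without control replicate 1 or 2 or treated replicate 2 or 4 (adjusted p of 0.074, 0.0806, 0.0916 and 0.0672) and under total-count scaling (adjusted p = 0.234). RFC4 and RFC5 share exonic positions with the more abundant EIF4A2 and WSB2 on the opposite strand, at 287 and 250.1 CPM of total against 64.7 and 70.2.

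Both enzymes that finish Okazaki fragments fell. FEN1, the flap endonuclease, was at 196, 191, 191 and 183 CPM in controls and 113, 102, 106 and 113 CPM in treated libraries (−0.81 ± 0.06, adjusted p = 8.33e-12). LIG1, the ligase that seals the nicks, was at 178, 181, 185 and 186 CPM in controls and 111, 115, 112 and 117 CPM in treated libraries (−0.68 ± 0.05, adjusted p = 8.34e-11). Neither overlapped between the groups, but their ratio did (log2 0.06 ± 0.07 to −0.06 ± 0.08; exact permutation p = 0.0571). FEN1 shares exonic positions with FADS2 on the same strand, at 73.1 CPM of total against 148 for FEN1.

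Replication protein A, the trimer that coats single-stranded DNA in replication and repair, showed the smallest falls of a complex in which every subunit was called. RPA1 was at 215, 226, 209.5 and 207 CPM in controls and 202, 180.2, 189 and 196 CPM in treated libraries (−0.16 ± 0.06, adjusted p = 0.0156). RPA2 was at 90.6, 88.8, 93.2 and 88.8 CPM in controls and 74.3, 64.5, 68.4 and 74.2 CPM in treated libraries (−0.36 ± 0.06, adjusted p = 2.7e-05). RPA3 went from 91.3 ± 3.71 to 73.5 ± 5.63 CPM (−0.31 ± 0.07, adjusted p = 0.000215). In all 3, every treated library was below every control. The RPA1 call ended without control replicate 2 or treated replicate 2 (adjusted p of 0.0703 and 0.0665) and under total-count scaling (adjusted p = 0.344).

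CHAF1A and CHAF1B, subunits of CAF-1, which deposits histones H3 and H4 behind the fork, fell. CHAF1A was at 135, 132, 130.1 and 139 CPM in controls and 65.2, 77, 70.5 and 72.1 CPM in treated libraries (−0.91 ± 0.06, adjusted p = 4.46e-12). CHAF1B was at 64.8, 62.1, 57.2 and 62.8 CPM in controls and 33.4, 36.7, 33.8 and 33.7 CPM in treated libraries (−0.84 ± 0.07, adjusted p = 1.71e-10). Treated libraries of both lay below all controls. Their log2 ratio was −1.12 ± 0.06 to −1.05 ± 0.06, with overlap (exact permutation p = 0.2). The remaining CAF-1 subunit, RBBP4, a histone-binding protein that also serves other chromatin complexes, is among the further genes and fell too (−0.75 ± 0.05, adjusted p = 7.37e-12). CHAF1A shares exonic positions with UBXN6 on the opposite strand, at 171 CPM of total against 101 for CHAF1A, and CHAF1B with MORC3 on the same strand, at 23.3 against 47.5.

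Fork protection genes fell. CLSPN, which encodes claspin, the mediator of CHK1 activation, was at 31.7, 33.7, 27.7 and 27.8 CPM in controls and 16.4, 13.6, 20.04 and 13.3 CPM in treated libraries (−0.94 ± 0.11, adjusted p = 1.36e-07). Treated replicate 3 was the highest of the treated libraries, and CLSPN had the largest SD of log2 CPM among treated libraries of any member (0.276, against a median of 0.0987). TIPIN, the partner of TIMELESS, was at 24.5, 23.3, 19.3 and 26.9 CPM in controls and 12.6, 12.2, 13.3 and 14.2 CPM in treated libraries (−0.85 ± 0.10, adjusted p = 1.02e-07). TIMELESS was at 249, 235, 254 and 257 CPM in controls and 162, 159, 166 and 155 CPM in treated libraries (−0.64 ± 0.05, adjusted p = 3.01e-10). WDHD1, which encodes AND-1, the link between helicase and polymerase alpha, was at 72.1, 68.6, 57.5 and 62.6 CPM in controls and 54.9, 43.7, 60.04 and 49 CPM in treated libraries, with treated replicate 3 inside the control range (−0.33 ± 0.09, adjusted p = 0.00246). The ratio of TIPIN to TIMELESS overlapped (log2 difference −0.20, exact permutation p = 0.143).

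**Figure D4:**
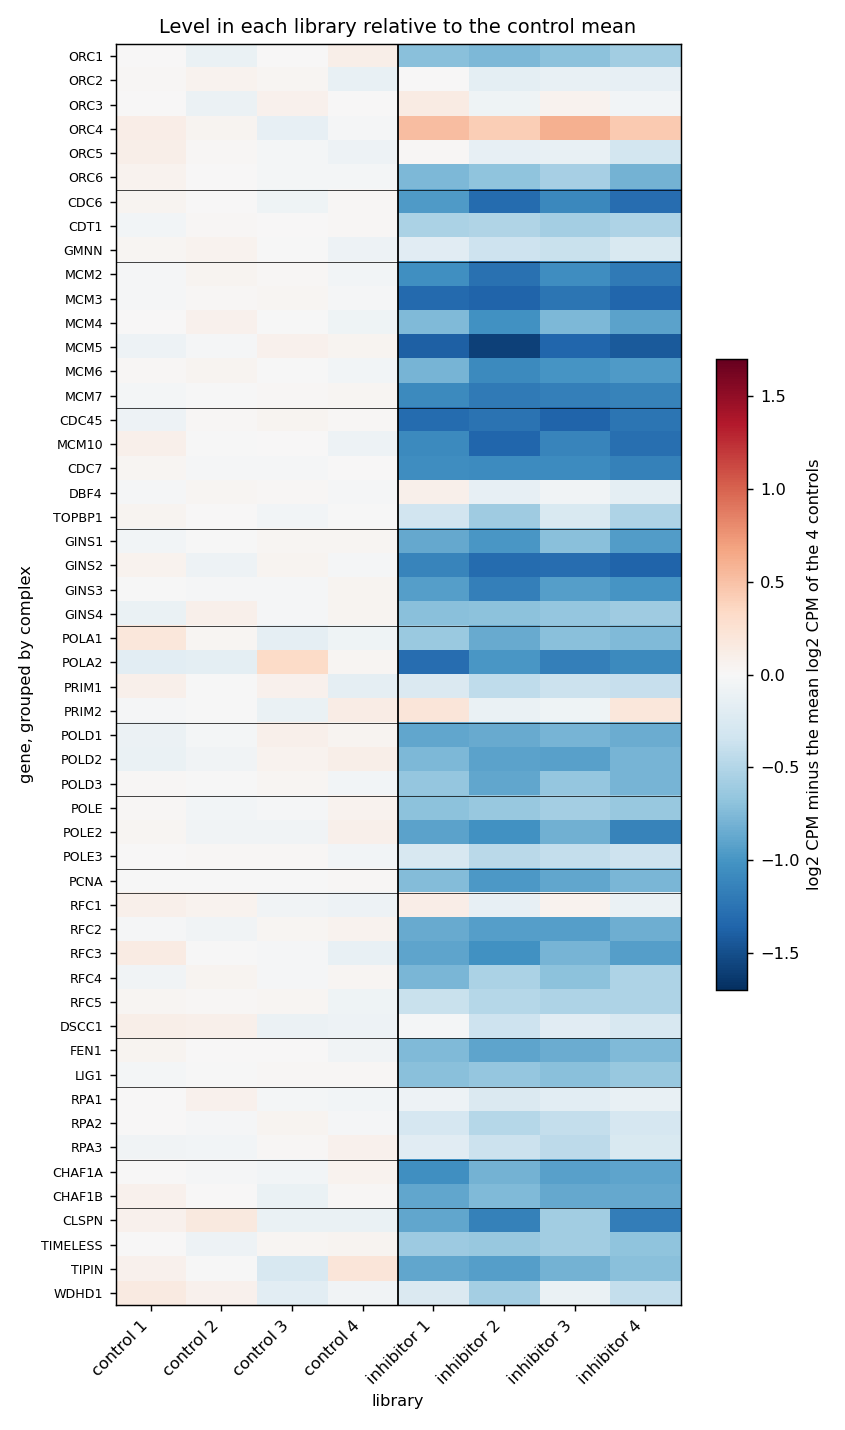
Log2 CPM of each of the 52 genes (rows, grouped by complex) in each of the 8 libraries (columns), minus the mean log2 CPM of the 4 controls. Blue is below and red above the control mean; ORC4 is red in all 4 inhibitor libraries and DBF4, RFC1, PRIM2, ORC2, ORC3 and ORC5 stay near white.

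Across the members, treated libraries varied more than controls. The median SD of log2 CPM was 0.0576 in controls and 0.0987 in treated libraries. Relative to their group mean, the 52 genes had a median deviation of 0.0719 in treated replicate 1 and −0.069 in treated replicate 2, and between −0.000721 and 0.0119 in the controls. Control libraries also fell into pairs. Controls 1 and 2 were closest to each other, as were controls 3 and 4 (chi-square per degree of freedom of 1.76 and 1.74, against 3.66 to 4.99 for the other control pairs). Treated libraries paired less clearly. Replicates 2 and 4 were closest (3.64), but replicate 1 was nearer to replicate 4 (5.08) than to replicate 3 (6.25). Libraries were put in 2 sets by how their deviations from the group means correlated over all tested genes. Controls were placed by the sign of the correlation with treated replicate 1, and treated libraries by that with control 1. Controls 1 and 2 and treated replicates 1 and 3 formed the first set and the other libraries the second. Correlations between controls and treated libraries were 0.027 to 0.131 within the sets and −0.161 to −0.053 across them. Because the sets were drawn from these values, their signs were in part fixed in advance. No label names the sets. Within the first set the median log2 difference of the 52 genes, treated minus control, was −0.74, and within the second it was −0.75. The map of levels by library shows treated replicates 2 and 4 as darker than replicates 1 and 3 for CDC6, MCM10, TOPBP1 and CLSPN. The direction differed by gene. For RFC4, CHAF1A, CDC45 and LIG1, treated replicates 2 and 4 had the highest levels of the treated libraries.

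Ratios between partner genes do not depend on how libraries are scaled, but offsets that differ by gene, such as GC offsets, can change them. The 19 pairs, subunits of 1 complex or partners in 1 step, were chosen with earlier results known. For partners that differed in call, the separation of their ratio was therefore in part fixed in advance. Of the 19 ratios, 13 did not overlap between the groups and 6 did. Ratios without overlap made up 68.6% of all 1326 pairs of the 52 genes and 49.1% of all pairs of tested genes, so the count says nothing particular about partners. Each of the 13 separated pairs had an exact permutation p = 0.0286 (0.0418 after Benjamini-Hochberg adjustment over the 19). The largest differences were ORC6 to ORC4 (−1.20), ORC1 to ORC4 (−1.18) and DBF4 to CDC7 (1.01). RPA2 to RPA1 differed by −0.20. MCM10 and CDC45 kept a ratio that overlapped between the groups (difference 0.08, exact permutation p = 0.457).

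**Figure D5:**
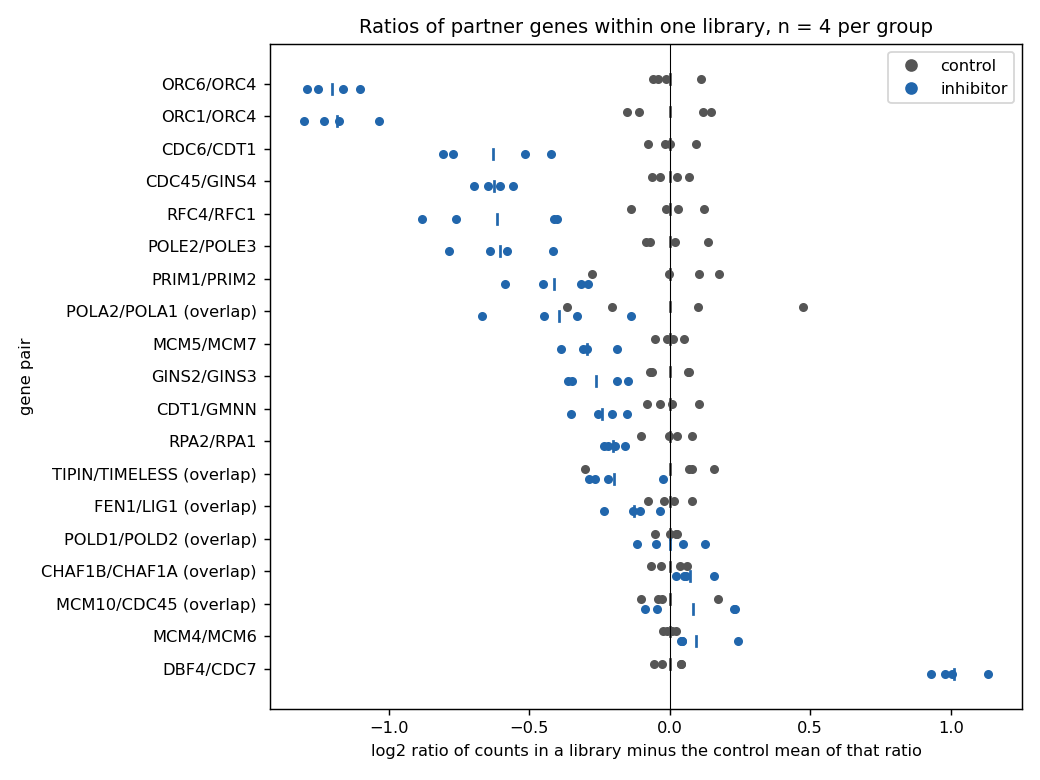
Log2 ratio of the counts of 2 partner genes within a library, minus the control mean of that ratio (x axis), for 19 pairs (y axis). Points are libraries (controls grey, inhibitor blue) and short lines are means, n = 4; ORC6/ORC4 and ORC1/ORC4 are shifted to about −1.2 and DBF4/CDC7 to 1.01.

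A further list of 44 replication genes outside the 52 was mixed, with 24 lower, 8 higher and 12 not passing (28.3% of tested genes were lower and 29.8% higher). Its median log2 change was −0.30. The largest falls were UHRF1 (−1.41 ± 0.07), which recognises hemimethylated DNA behind the fork, and CDC25A (−1.19 ± 0.08), the phosphatase that activates CDK2. TONSL (−1.11 ± 0.07), a reader of newly deposited histones, DTL (−0.93 ± 0.07), the receptor that targets CDT1 for destruction at PCNA, and DNMT1 (−0.78 ± 0.05), the maintenance DNA methyltransferase, followed. All 4 clamp-bound and CRL4 factors and 6 of 7 fork histone chaperones fell.

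In this list 8 genes rose. POLD4, the smallest subunit of polymerase delta, was at 6.81, 8.95, 8.28 and 7.65 CPM in controls and 10.8, 14.2, 12 and 14.9 CPM in treated libraries (0.72 ± 0.12, adjusted p = 2.32e-05), and POLE4, the histone-fold partner of POLE3, at 30.5, 31.4, 33.2 and 33.7 CPM in controls and 44.4, 42.6, 34.3 and 40.2 CPM in treated libraries (0.33 ± 0.08, adjusted p = 0.0013). Every treated library of both exceeded every control, whereas POLD1 to POLD3 and POLE to POLE3 fell. ETAA1 (0.63 ± 0.08), an activator of ATR, HUS1 (0.61 ± 0.09), part of the checkpoint clamp, and RAD17 (0.43 ± 0.07), which loads that clamp, rose, whereas the clamp's other parts RAD1 (0.01 ± 0.06, adjusted p = 0.902) and RAD9A (0.02 ± 0.08, adjusted p = 0.82) did not pass. The topoisomerase II genes TOP2B (0.58 ± 0.06) and TOP2A (0.55 ± 0.07) rose, as did MCM9 (0.35 ± 0.09), a helicase of recombination, while its partner MCM8 fell (−0.49 ± 0.06). ATR (−0.36 ± 0.09), ATRIP (−0.34 ± 0.09) and CHEK1 (−0.62 ± 0.07) were lower. Differences between the changes of these genes were not tested. POLD4 lies within the span of RAD9A on the opposite strand, at a control mean of 7.92 CPM against 49.2 for RAD9A. ASF1A lies within the span of MCM9 on the opposite strand, at a control mean of 24.2 CPM against 19.3 for MCM9. Shared exonic positions were not examined for this list.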

How the data were processed

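The authors deposited raw counts for every gene in a separate file for each library. Reads had been aligned to hg38 and summarised by featureCounts, per the submitters' processing notes, which also name DESeq2. No source used here names the aligner, annotation, strandedness or versions. Each file listed 58735 Ensembl identifiers, and 58207 were found in GENCODE release 44 (hg38), the source of symbols, positions and exon lengths. Groups and replicate numbers came from the titles. Pairs of libraries within a group gave a chi-square of at least 1.736 per degree of freedom, so none agreed within sampling noise. The sets that the libraries were put in are described with the results.

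Counts were filtered (filterByExpr), scaled with TMM and tested with edgeR 4.0.16 in R 4.3.3 (glmQLFit, robust, group only), with Benjamini-Hochberg adjustment over 16452 genes. A gene was called at an adjusted p under 0.05. CPM are on the TMM scale unless given as CPM of total. The SE is the log2 change divided by the square root of F, and was 0.069 at the median of the 52 genes. Ratios of partner genes are log2 of counts plus 0.5, tested by two-sided exact permutation of 4 against 4. Motifs were searched on both strands, and overlapping matches were counted separately. The code was tested on simulated data.

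The members, lists and pairs were chosen with earlier results of these data known. The text names all 52 members, and gives every library for the extremes, for the member of each complex with the smallest p, for members not called and for complexes whose subunits differed in call. Of the further list it names the 5 largest falls, all rises and, chosen after their values were seen, RBBP4, RAD1, RAD9A, MCM8, ATR, ATRIP and CHEK1. Genes that share exonic positions with a member are named where their level was at least 25% of the member's. As alternatives, libraries were scaled by RLE, upper quartile or total counts, and other runs used no filter, a filter of 1 CPM in 4 libraries, DESeq2 1.42.0, limma-voom (limma 3.58.1), a replicate block, GC offsets, each library left out, an adjusted p under 0.01, 1 added to counts in ratios and, chosen after seeing the data, the set of libraries as a term. All 8 files were used.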

Additional observations from a re-analysis of the deposited data

Results flagged for a closer look

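Among 142 sets of 4 values (52 genes and 19 ratios in each group), 5 had 1 library set apart from the other three by more than Dixon's critical share of the range for groups of this size. Chance flags about 1 in 20 such sets. In control replicate 4, POLE3 was at 117.8 CPM (others 123.1 to 124.1), RFC5 at 77.94 CPM (others 83.25 to 84.05) and PCNA at 359.2 CPM (others 351.4 to 352.7). CHAF1B was at 36.68 CPM in treated replicate 2 (others 33.39 to 33.77). The log2 ratio of MCM4 to MCM6 was 2.01 in treated replicate 3 and 1.81 in each of the others. Treated libraries of the 4 genes stayed below all controls.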

How the results depend on the processing

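Under every alternative run, between 43 and 49 of the 52 genes were lower and 1, ORC4, was higher. The count of lower genes was 45 with RLE or upper-quartile scaling, either filter, DESeq2, limma-voom and the replicate block, 43 under total counts or an adjusted p under 0.01, 49 with GC offsets, and 43 to 46 with 1 library left out. Total-count scaling moved the median of all genes from 0.02 to 0.126, the share of higher genes among all calls from 51.3% to 63.6% and the median of the 52 genes to −0.641; DSCC1 and RPA1 were then no longer called. With GC offsets ORC2, ORC5, DBF4 and RFC1 became lower (−0.228, −0.242, −0.216 and −0.121), and without treated replicate 1 ORC5 did (−0.207). Signs of genes not called also changed: with GC offsets ORC3 was at −0.113 and PRIM2 at −0.0333, under total counts DBF4 was at 0.0351 and RFC1 at 0.0856, and RFC1 was at 0.0122 with upper-quartile scaling. With 1 library left out, ORC3 ranged from −0.0417 to 0.0499, PRIM2 from −0.0202 to 0.111 and RFC1 from −0.0822 to 0.0221. The cause was not tested. In the further list 22 to 27 genes were lower and 8 to 10 higher. The ratios were rerun only with 1 added to counts and with 1 library left out, where 13 or 14 of the 19 stayed apart. They were not rerun with GC offsets.

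Replicate numbers are shared between the groups, but libraries with the same number did not deviate together: correlations of their deviations from the group means were 0.131, −0.088, −0.053 and 0.084 for numbers 1 to 4. With the replicate number as a block, 45 members were lower, the median was −0.744 and 9596 genes were called in place of 9549, and no member's call changed. With the 2 sets of libraries as a term in place of the block, chosen after seeing the data, 45 members were again lower, the median was −0.745, 10407 genes were called and no member's call changed. Precision was lowest for POLA2, with 112 counts in its smallest library.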
